A study of Mus musculus with 7 samples.

Results

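The mitochondrial respiratory chain subunits encoded in the nucleus were followed across pooled medial preoptic area (MPA) neurons that had either responded or not responded to warming. Genes were taken by symbol, namely those starting with Ndufa, Ndufb, Ndufc, Ndufs, Ndufv, Uqcr, Cox4i, Cox5, Cox6, Cox7, Cox8 or Atp5, together with Sdha to Sdhd and Cyc1, and without assembly factors of the Ndufaf type or pseudogenes. This gave 86 of the 24062 genes in the count table, of which 38 belonged to complex I, 4 to complex II, 9 to complex III, 18 to complex IV and 17 to complex V. The symbol rule is slightly wider than the biology. Ndufa4, counted here under complex I by its name, is now known as a subunit of complex IV, and Atp5s and Atp5sl carry an ATP synthase prefix without being subunits of the enzyme itself.

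The respiratory chain passes electrons from NADH (complex I) and succinate (complex II) through complex III and cytochrome c to complex IV, where oxygen is reduced. Complexes I, III and IV pump protons across the inner mitochondrial membrane, and complex V, the ATP synthase, uses the returning protons to make ATP. Each complex other than complex II joins a small catalytic core to many short accessory subunits. Neurons depend on the chain for the ATP that restores their ion gradients after firing. The core subunits encoded in mitochondrial DNA were not analysed here.

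The study recorded from neurons of the MPA in brain slices of female ERα-ZsGreen mice on a C57BL/6J background, 10 to 14 weeks old, in which the fluorescent protein ZsGreen marks cells expressing estrogen receptor alpha (*Esr1*). Slices were warmed by 5 °C during whole-cell recording, ZsGreen-positive neurons were classed as temperature-responsive (TR) or non-responsive (NR) by their firing, and the contents of each were drawn into the pipette (Patch-seq). Both groups therefore share genotype, sex, age range, reporter, recording and warming, and were set apart by the recorded response. Each sample pooled 2 neurons of one class, and there were 4 TR and 3 NR samples. The labels do not say which animals the neurons came from, so p-values measure the spread between these pools.

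Total counts ran from 1914497 to 2814360 in TR and from 3309361 to 5125280 in NR, so that every TR sample was shallower than every NR sample and the deepest held 2.68 times the counts of the shallowest. Depth and response class therefore cannot be told apart across the groups. The neuronal markers Snap25, Syt1, Stmn2, Rbfox3, Tubb3, Eno2, Map2 and Syp summed to 3596 to 4007 CPM (counts scaled to a common library size by the TMM-adjusted total of each sample) in TR and 3342 to 3834 in NR. *Esr1* itself had 10 to 21 counts in TR and 19 to 27 in NR, or 4.7 to 11.4 and 3.6 to 6.3 CPM. Endothelial markers summed to 94.1 to 317 CPM in TR and 17.9 to 64.9 in NR, and pericyte and smooth muscle markers to 117 to 300 and 67.7 to 81.8 CPM, with 2 of 5 and 6 of 8 of these genes higher in TR and none lower. Olfactory receptor genes, 1122 in number and best known from the nose, summed to 347 to 828 CPM in TR and 45.4 to 252 in NR. The part of these signals in the subunit results was not tested.

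Relative to library size, most subunits were higher in the TR samples. After a filter of at least 10 counts in at least 3 samples, 80 of the 86 genes were tested, and 51 were higher in TR, 6 were lower and 23 did not pass the threshold (edgeR quasi-likelihood test, two-sided, Benjamini-Hochberg adjusted p under 0.05 over all 14407 genes tested). Over all genes, 30.0% passed the threshold, 15.1% higher and 14.9% lower, against 71.2% of the subunits tested. The median log2 fold change (TR over NR) was 0.57 over the subunits and 0.0071 over all genes tested. CPM did not overlap between groups, with TR higher, for 48 of the 80 subunits against 17.2% of all genes tested, and with TR lower for 6 subunits against 18.2%. Of the calls over all genes, 50.3% were higher, and this share was 62.1% with upper quartile normalization, 42.1% with library size alone and 37.5% with an offset for GC content, settings under which 49 to 52 subunits were called higher and 4 to 7 lower. Leaving out single samples gave 45 to 53 subunits higher and 3 to 8 lower, with 3 lower without NR replicate 3 or without TR replicate 2.

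Fits with covariates for depth and for genes detected were also made. Every TR total lay below every NR total, and every TR sample detected more genes than every NR sample. These covariates are therefore tied to the groups, and a loss of calls with them cannot tell depth from response class. With the log2 total of each sample as a covariate, added after seeing the data, edgeR called 0 of the 80 subunits and 0 of all genes. Its unadjusted p was under 0.05 for 2 of the 80 subunits and for 697 of the 14407 genes. The median log2 fold change of the subunits was 0.0070. With a covariate for how many genes each sample detected, 0 subunits and 1 gene in all were called. The unadjusted p of edgeR was under 0.05 for 38 of the 80 subunits (37 of them higher) and for 2061 of the 14407 genes. The median log2 fold change of the subunits was 0.39.

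**Figure D1:**
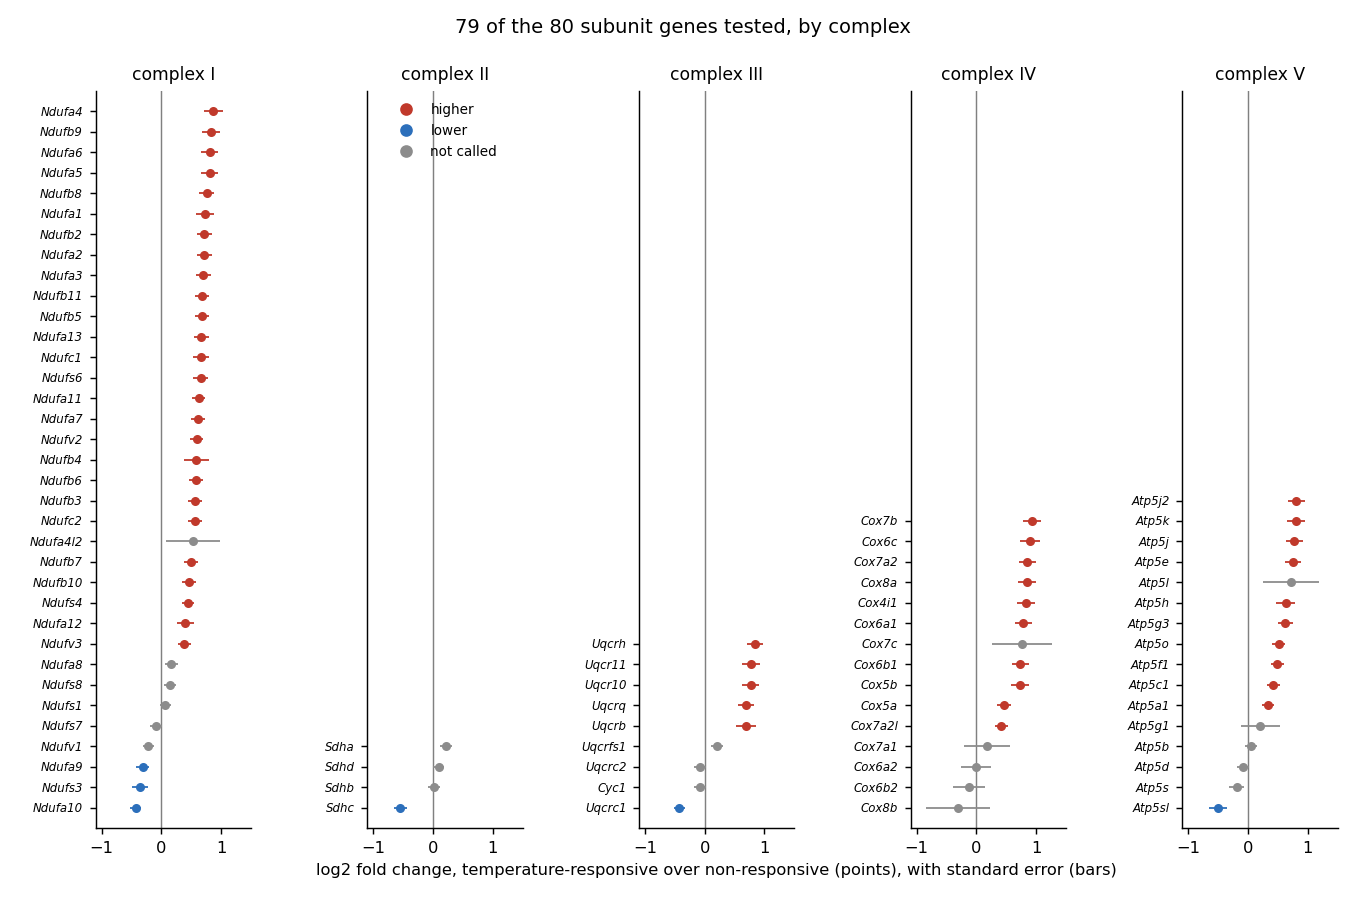
Each point is the log2 fold change (TR over NR) of 1 of 79 of the 80 subunit genes tested, with its standard error as a bar, in 1 panel per complex. Points in red passed the threshold upward (51 genes), points in blue downward (6 genes) and gray points did not pass (22 of 23 genes shown). The red points fill the upper part of complexes I, III, IV and V, and complex II has none.

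By complex, the called subunits were spread as follows. In complex I, the NADH dehydrogenase and largest of the 5, 26 of 36 subunits tested were higher and 3 were lower, with a median log2 fold change of 0.59. In complex IV, cytochrome c oxidase, 10 of 15 were higher and 0 lower, with a median of 0.74. In complex III, the cytochrome bc1 complex, 5 of 9 were higher and 1 was lower (median 0.69), and in complex V 10 of 16 were higher and 1 lower (median 0.50). In complex II, succinate dehydrogenase, 0 of 4 were higher, 1 was lower and the median was 0.06.

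Summed over all members, complex IV stood at 2656, 2768, 2147 and 2044 CPM in TR replicates 1 to 4 and at 1824, 1239 and 1250 CPM in NR replicates 1 to 3. The TR mean of 2404 ± 362 (SD, n = 4) was 1.67 times the NR mean of 1437 ± 335 (n = 3), without overlap. Complex I had 7500 ± 730 CPM in TR and 5493 ± 858 in NR, a ratio of 1.37, and complex V 3400 ± 385 and 2615 ± 345, a ratio of 1.30, both without overlap. The sums of complex III (1832 ± 198 and 1530 ± 128) and complex II (1065 ± 89.2 and 1034 ± 61.7) overlapped between the groups.

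The order of the samples by summed CPM of all 86 genes was close to the reverse of their order by depth. The sums were 17986, 17325, 15047 and 14450 CPM in TR replicates 1 to 4 and 14099, 11129 and 11098 CPM in NR replicates 1 to 3. NR replicate 1, the shallowest NR sample, lay closest to the TR samples. In counts as deposited the direction was the other way, with 31946 to 41153 subunit counts in TR and 46727 to 58730 in NR in the larger NR libraries.

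**Figure D2:**
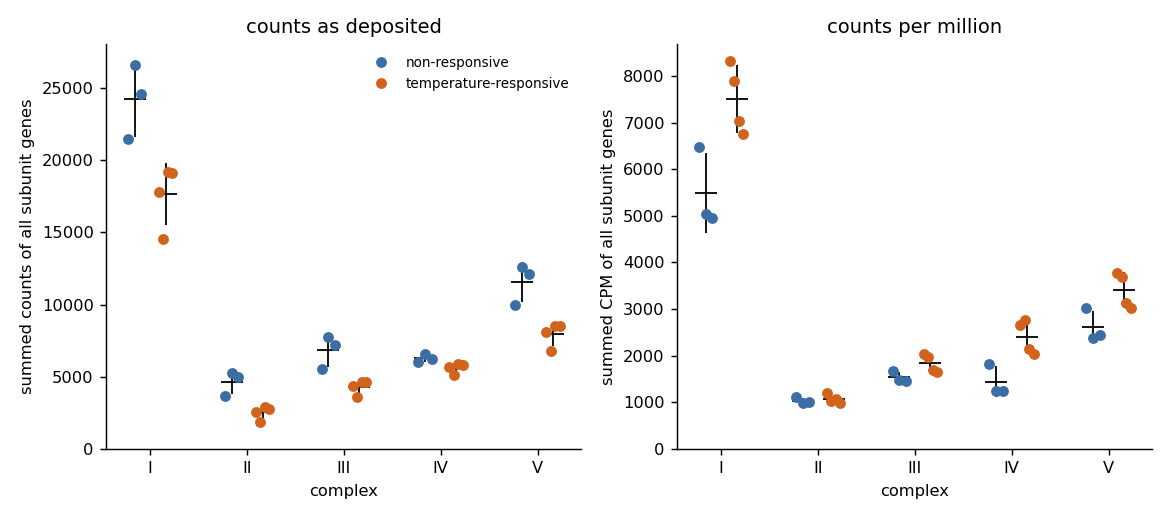
Summed counts as deposited (left) and summed CPM (right) of all subunit genes of each complex, with 1 point per sample, the group mean as a horizontal mark and the SD as a vertical line. The NR samples (blue) are above the TR samples (orange) in counts for all 5 complexes, and for complexes I, IV and V the TR samples are above in CPM, without overlap.

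The subunits that rose most had nearly the same count in every sample. Cox4i1, the main isoform of subunit 4 and a nuclear subunit laid down early in complex IV assembly, had 1114, 1031, 1153 and 1104 counts in TR and 1142, 1174 and 1158 in NR. The counts differed by at most 1.14 times over 7 samples whose totals differed by 2.68 times. Scaled to library size this became 473 ± 79.9 CPM in TR and 267 ± 67.6 in NR, a log2 fold change of 0.83 (SE 0.15, adjusted p = 0.00082 by edgeR's quasi-likelihood test).

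Cox6c, a small subunit of complex IV, had 460, 435, 452 and 460 counts in TR and 455, 467 and 441 in NR. Ndufa4 had 633, 616, 650 and 646 counts in TR and 650, 667 and 632 in NR. Cox8a, the main isoform of subunit 8 of complex IV, had 527, 515, 536 and 543 in TR and 543, 561 and 551 in NR. None of the 3 genes separated the groups by counts, and all 3 separated them by CPM, with log2 fold changes of 0.90, 0.87 and 0.85.

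Level counts were also found among the subunits with the largest rises in other complexes. Ndufb9, an accessory subunit of the membrane arm of complex I, had 914 to 1005 counts in TR and 1010 to 1034 in NR, and rose by a log2 fold change of 0.84 (SE 0.15). Uqcrh, the hinge protein that helps cytochrome c dock to complex III, had 550 to 610 and 588 to 646 counts and rose by 0.85 (SE 0.14). Uqcr11, a small subunit of complex III, had 248 to 298 and 286 to 305 counts and rose by 0.77 (SE 0.14). In complex V, Atp5j2 and Atp5k, small membrane subunits f and e, had 391 to 449 and 193 to 242 counts in TR, 438 to 477 and 221 to 257 in NR, and rose by 0.81 and 0.80. Cox7b of complex IV, with 499 to 544 counts in TR and 491 to 564 in NR, had the largest rise of all 80 genes, 0.93 (SE 0.15, adjusted p = 0.0004).

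Of the 69 subunits with at least 100 counts in every sample, 30 (43.5%) had a highest count under 1.5 times the lowest over the 7 samples, against 2.77% of the 5125 genes of all kinds with that many counts. These 30 comprised 11 subunits of complex I, 5 of complex III, 8 of complex IV and 6 of complex V. All 30 were called higher in TR, with log2 fold changes of 0.62 to 0.93, which follows from a level count over libraries of unequal size, and in 29 of them CPM did not overlap between groups. Just inside the limit were Ndufb11 with a ratio of 1.46 and Atp5g3 with 1.43, and just outside it Ndufb5 with 1.51 and Ndufc2 with 1.55. Of the other 39 subunits, 20 were higher, 4 lower and 15 were not called.

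**Figure D3:**
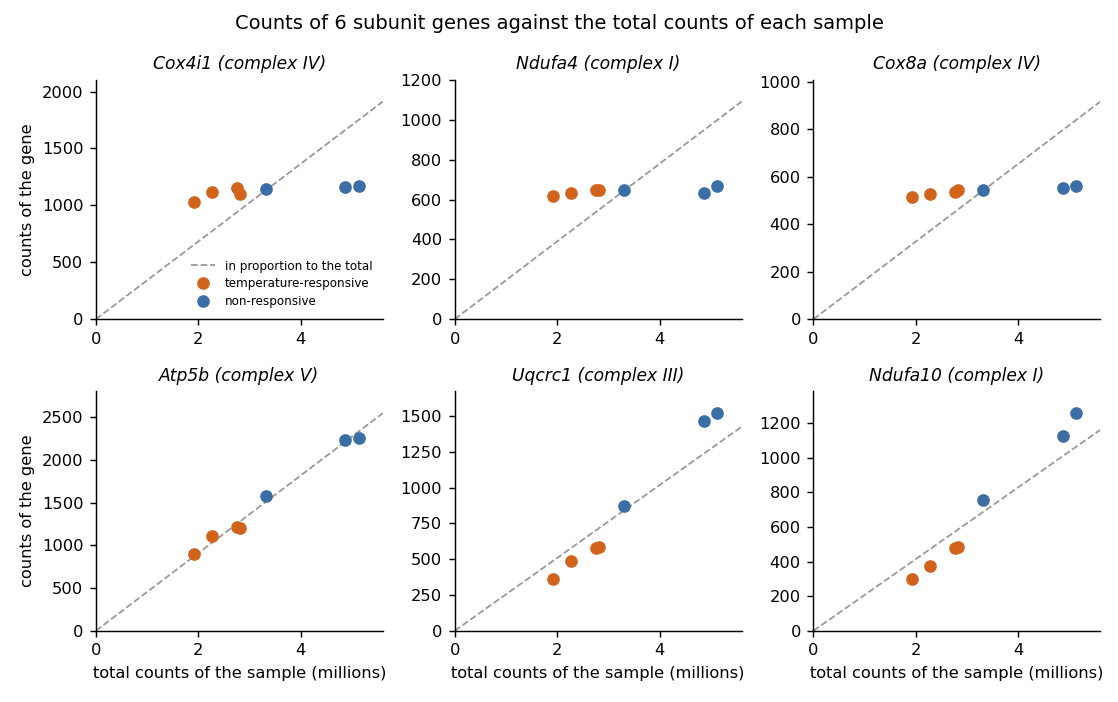
Counts of 6 subunit genes (vertical axes, each from 0) against the total counts of the sample, with TR samples in orange, NR samples in blue and a dashed line for counts in proportion to the total. Cox4i1, Ndufa4 and Cox8a stay level from the shallowest to the deepest sample, and Atp5b follows the line. Uqcrc1 and Ndufa10 lie under the line in every TR sample and over it in every NR sample.

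Counts were also compared between samples of one class. The 30 level subunits were chosen by a range under 1.5 times over the 7 samples. Their ratios within a class were therefore bound under 1.5 in advance. The deepest NR sample had 1.55 times the total of the shallowest, and the 30 level subunits had 1.00 to 1.21 times the count (median 1.06). The deepest TR sample had 1.47 times the total of the shallowest, and the same 30 subunits had 1.05 to 1.24 times the count (median 1.14). Of the 69 subunits, 8 in NR and 16 in TR had a count ratio at or above that of the totals. Over the 69 subunits the log2 fold change between groups had a Spearman correlation of -0.91 with the count ratio within NR and -0.84 with that within TR. These correlations are across genes and describe values that come from the same 7 libraries.

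**Figure D4:**
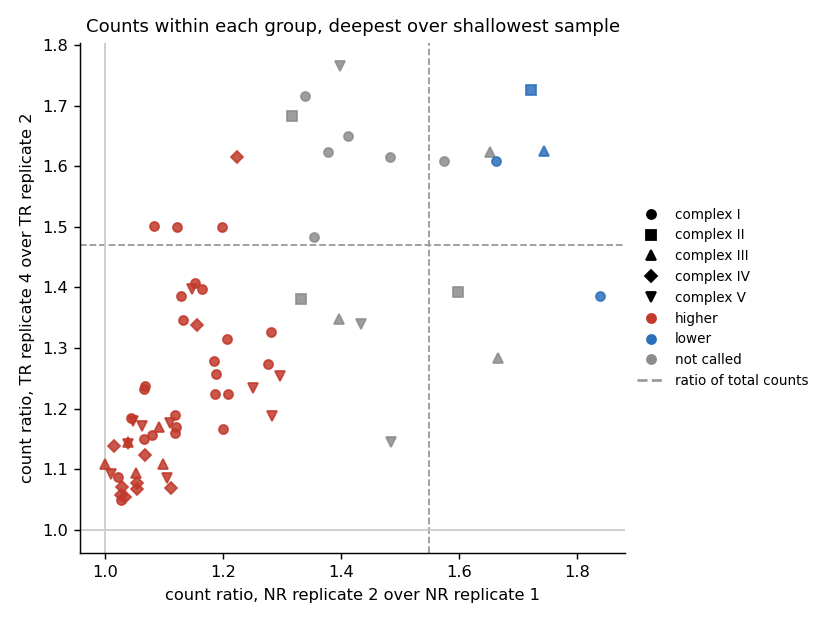
For the 69 subunits with at least 100 counts in every sample, the count in the deepest over the shallowest NR sample (horizontal) and in the deepest over the shallowest TR sample (vertical), with dashed lines at the ratios of total counts, 1.55 and 1.47, and gray lines at a ratio of 1. Symbols give the complex and colors the call, and the genes called higher gather near a ratio of 1 in both groups.

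The level subunits were short and abundant per base. Their coding length was 156 to 558 bases (median 282), against 228 to 2181 (median 636) for the other 39. They held a median of 0.92 counts per transcript base, averaged over samples, against 0.67 for the other 39 and 0.038 over all genes tested. Both subunit sets were limited to genes with at least 100 counts in every sample, whereas all genes tested were not. Over the 80 subunits tested, the Spearman correlation of the log2 fold change was -0.64 with coding length and 0.52 with counts per transcript base. Of 57 subunits with a coding length under 600 bases, 45 were higher and 1 was lower, and of 23 longer ones 6 were higher and 5 lower. The authors removed PCR duplicates by position before counting, and the library kit carries no molecular identifiers, so that reads sharing a position were kept once. The part of this step in the level counts was not tested. With an offset for transcript length, fitted per sample, 39 subunits were higher and 5 lower, and the median log2 fold change was 0.31. An offset for counts per kilobase, also fitted per sample but added after seeing the data, gave 43 higher and 12 lower, with a median of 0.29.

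**Figure D5:**
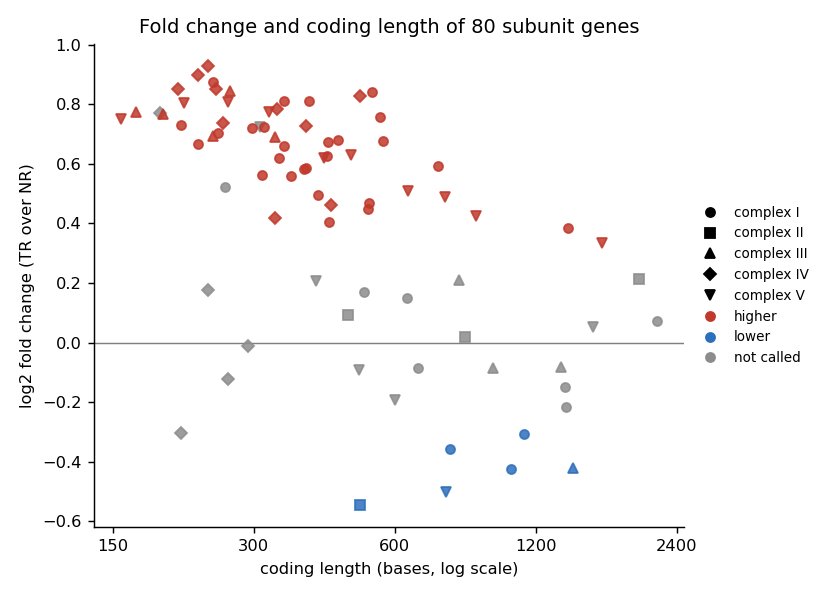
Log2 fold change (TR over NR, vertical) against coding length in bases (horizontal, log scale) for the 80 subunits tested, with the complex as symbol and the call as color. The 30 level subunits all lie between 156 and 558 bases, and 5 of the 6 subunits called lower lie above 600 bases.

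The catalytic and scaffold core held fewer calls for its size than the accessory subunits. Of 22 core genes, chosen for their role, 7 were higher, 3 lower and 12 not called, with a median log2 fold change of 0.08 and a median coding length of 834 bases. Of the other 58 subunits tested, 44 were higher, 3 lower and 11 not called, with a median of 0.67 and a median coding length of 334.5 bases. The difference between the sets was not tested.

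In the core of complex I, 1 of 7 genes was higher and 1 lower, a called share of 28.6% that is close to the 30.0% over all genes. Ndufv2, which holds an iron-sulfur cluster beside the NADH site, had 1054, 879, 1119 and 1105 counts in TR and 1179, 1400 and 1294 in NR, and a log2 fold change of 0.59 (SE 0.12). Ndufs3, a core subunit of the peripheral arm, was lower by -0.36 (SE 0.13, adjusted p = 0.041), with 51.9 ± 6.7 CPM in TR and 66.7 ± 2.2 in NR. This call was lost in 14 of 21 alternatives other than the covariates, DESeq2 among them (adjusted p = 0.072), and 75.7% of the transcript has a near-identical copy in another annotated gene (at least 98% identity over at least 100 bases). Log2 fold changes were 0.07 for Ndufs1, the largest subunit, -0.09 for Ndufs7 and 0.15 for Ndufs8, which carry the last iron-sulfur clusters, and -0.22 for Ndufv1, which binds the flavin that takes the electrons of NADH. None of these 4 passed the threshold.

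Ndufa10 had the largest fall in complex I. This nucleoside kinase-like accessory subunit had 377, 302, 481 and 486 counts in TR and 757, 1258 and 1123 in NR. At 172 ± 5.8 CPM in TR against 231 ± 6.4 in NR, it was lower by a log2 fold change of -0.43 (SE 0.09, adjusted p = 0.0013). Its groups did not overlap, and its counts rose more steeply than the totals. Ndufa9, an accessory subunit at the junction of the membrane and peripheral arms, was lower by -0.31 (SE 0.11, adjusted p = 0.031), with 269 to 373 counts in TR, 538 to 989 in NR and overlapping CPM, and this call was lost in 10 of 21 alternatives, DESeq2 (adjusted p = 0.057) among them.

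The remaining accessory subunits of complex I were mostly higher. Of 29 accessory genes tested, 25 were higher. Their log2 fold changes ran from 0.38 for Ndufv3, the longest of the 25, to 0.84 for Ndufb9 and 0.87 for Ndufa4. Ndufa4 is counted here by its name, although it is a subunit of complex IV. Besides Ndufa10 and Ndufa9, which were lower, Ndufa8 (0.17, at 408 to 980 counts) and Ndufa4l2 were not called. Ndufb4, with 47 to 73 counts and 40.2% of its transcript in a near-identical copy, was higher by 0.59, and Ndufa12, with 36.2% in a copy, by 0.40. These calls were lost in 9 and 8 of 21 alternatives.

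Complex II, which has no mitochondrially encoded subunit, held 1 call among 4 genes, a share near that over all genes. Sdhc, which anchors the enzyme in the membrane, had 278, 168, 305 and 290 counts in TR and 496, 854 and 818 in NR, or 109 ± 16.4 and 159 ± 8.1 CPM. It was lower by a log2 fold change of -0.55 (SE 0.11, adjusted p = 0.00085), the largest fall of the 80 subunits. Sdha, the flavoprotein that oxidizes succinate, stood at 481 ± 47.6 CPM in TR and 415 ± 37.5 in NR, with a log2 fold change of 0.21 (SE 0.10, adjusted p = 0.12). The iron-sulfur subunit Sdhb and the second anchor Sdhd had log2 fold changes of 0.02 and 0.09, and for these 3 genes the groups overlapped.

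In complex III, Uqcrc1, one of the large core proteins facing the matrix, had 486, 361, 577 and 587 counts in TR and 871, 1519 and 1462 in NR. Its level was 210 ± 13.0 CPM in TR and 282 ± 16.8 in NR, without overlap, and its log2 fold change was -0.42 (SE 0.09, adjusted p = 0.0019). The second core protein Uqcrc2, the Rieske iron-sulfur protein Uqcrfs1 and cytochrome c1 (Cyc1) had log2 fold changes of -0.08, 0.21 and -0.09 and were not called. The 5 accessory subunits, each with a coding length of 168 to 333 bases, were all higher.

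In complex IV, the 3 nuclear subunits counted as core were called higher in the fit reported. Cox5a, which binds the matrix face, had 643, 484, 647 and 648 counts in TR and 755, 873 and 834 in NR, and a log2 fold change of 0.46 (SE 0.12, adjusted p = 0.0051). Cox5b, a zinc-binding subunit, had 211, 187, 211 and 210 in TR and 222, 237 and 237 in NR, and a log2 fold change of 0.73 (SE 0.15). The Cox5a value was 0.18 with the transcript length offset (adjusted p = 0.24) and 0.03 with the counts per kilobase offset (adjusted p = 0.81), neither of them past the threshold. Part of the Cox5b transcript, 45.1% of its length, has a near-identical copy in another annotated gene.

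In the catalytic head of complex V, Atp5a1 (alpha) was higher by 0.33 (SE 0.11, adjusted p = 0.021) and Atp5c1 (gamma, the rotor) by 0.42 (SE 0.11, adjusted p = 0.0072). The Atp5a1 call was lost in 7 of 21 alternatives, among them 0.27 without NR replicate 2 (adjusted p = 0.14), 0.32 without NR replicate 3 (0.092), 0.28 without TR replicate 1 (0.051), 0.29 without TR replicate 2 (0.078) and 0.063 with the expression level offset (0.52). The Atp5c1 call was lost in 3, namely without NR replicate 2 (adjusted p = 0.051), without NR replicate 3 (0.057) and with the counts per kilobase offset (0.070, adjusted p = 0.54). Atp5b (beta), which carries the catalytic sites, had 1111, 896, 1214 and 1201 counts in TR and 1575, 2258 and 2236 in NR. At 469 ± 42.5 and 451 ± 23.7 CPM its groups overlapped, with a log2 fold change of 0.05 (SE 0.10, adjusted p = 0.71). Alpha and beta occur in equal number in the enzyme, and whether their fold changes differed was not tested. Atp5o, the stalk subunit that confers oligomycin sensitivity, was higher by 0.51 (SE 0.11). Atp5sl was lower by -0.50 (SE 0.16, adjusted p = 0.017), with 121, 66, 137 and 161 counts in TR and 192, 363 and 426 in NR. Without NR replicate 3 its log2 fold change was -0.34 (adjusted p = 0.14) and without TR replicate 2 it was -0.38 (adjusted p = 0.075), and the call was also lost with the expression level offset (adjusted p = 0.050). The delta subunit of the central stalk, Atp5d (-0.09), and Atp5s (-0.19), a factor linked to the enzyme, were not called, whereas the epsilon subunit Atp5e, the shortest gene of the set at 156 coding bases, was higher by 0.75 with 403 to 527 counts.

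Several subunits have isoforms used in different tissues, and in both groups the isoform known from brain and liver prevailed. Per kilobase of transcript, Cox6a1 averaged 464 CPM in TR and 270 in NR and its heart and muscle isoform Cox6a2 17.9 and 18.0. Cox7a2 averaged 383 and 212 CPM per kilobase and the muscle isoform Cox7a1 15.4 and 13.6. Cox8a averaged 415 and 231 against 7.6 and 10.01 for the muscle isoform Cox8b. Cox6b1 averaged 405 and 244 against 18.1 and 20.1 for Cox6b2, an isoform known from testis.

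The brain-type isoforms Cox4i1, Cox6a1, Cox6b1, Cox7a2 and Cox8a were all higher in TR, by log2 fold changes of 0.74 to 0.85. None of the minor isoforms Cox6a2 (-0.01), Cox6b2 (-0.12), Cox7a1 (0.18) and Cox8b (-0.30) passed the threshold, at 2 to 78 counts a sample. Cox7a2l, related to Cox7a2 and known for joining complexes III and IV into supercomplexes, was higher by 0.42 (SE 0.11), a call lost without NR replicate 2 (adjusted p = 0.060) or NR replicate 3 (adjusted p = 0.051). Cox4i2, the oxygen-sensitive alternative to Cox4i1, had 6, 9, 11 and 7 counts in TR and 2, 10 and 8 in NR, and Ndufa4l2, a relative of Ndufa4 induced by low oxygen, had 5 to 24 and 17 to 21. Both are known from pericytes and other vascular cells, whose markers differed between the groups as given above. Ndufa4l2 was not called (log2 fold change 0.52, SE 0.45), and Cox4i2 did not pass the filter.

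In total, 6 subunits did not pass the filter on low counts. They were Ndufs5 with a highest count of 0, Atp5g2 and Cox8c with 3, Cox4i2 with 11, and Cox7b2 and Ndufab1 with 15. Cox8c and Cox7b2 are known from testis. Ndufs5, Ndufab1 and Atp5g2, however, belong to subunits that every respiring cell uses, as do Cox7c (8 to 14 counts), Atp5l (7 to 16) and Atp5g1 (18 to 36), which were tested and not called.

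For each of these 6 common subunits the mouse annotation holds a near-identical copy elsewhere in the genome, covering 11.1% to 88.2% of the transcript. For Ndufs5 the copy is in BC002163 and for Cox7c in Gm10012. The first 120 coding bases of each pair are shown because the number of differing bases, in capitals, sets which reads can be told apart. They were read from the GENCODE M21 transcripts on mm10, for Ndufs5 (chr4:123712710-123718202, minus strand), BC002163 (chr16:42955631-42955949), Cox7c (chr13:86044816-86046904, minus strand) and Gm10012 (chr17:25901856-25902227).
Ndufs5: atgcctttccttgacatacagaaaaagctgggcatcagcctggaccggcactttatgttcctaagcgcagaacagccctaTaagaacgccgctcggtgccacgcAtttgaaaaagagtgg
BC002163: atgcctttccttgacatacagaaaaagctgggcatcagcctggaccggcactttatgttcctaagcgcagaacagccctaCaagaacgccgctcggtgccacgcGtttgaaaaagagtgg
Cox7c: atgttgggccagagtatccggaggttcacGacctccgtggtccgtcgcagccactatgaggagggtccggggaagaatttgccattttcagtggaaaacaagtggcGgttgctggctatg
Gm10012: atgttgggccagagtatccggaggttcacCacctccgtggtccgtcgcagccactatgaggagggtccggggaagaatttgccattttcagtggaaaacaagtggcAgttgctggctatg
Counted from the first coding base, the copies differ by T81C and A105G in Ndufs5 and by G30C and G107A in Cox7c, so that a read within these bases that covers neither position matches both places. How reads matching several places were counted is not given in the sources used here. In all, 14 of the 86 subunits had such a copy, and their counts are uncertain to that extent. Those beyond the 6 common subunits all had higher counts, the lowest being Ndufb4 with 40.2% copied and 47 to 73 counts. Atp5h had 77.6% copied and 163 to 215 counts, Uqcrb 62.8% and 138 to 177, and Atp5f1 43.4% and 445 to 765. The lowest share, 11.1%, was that of Atp5g1, at 18 to 36 counts. The part of the copies in the low counts was not tested. Atp5g3, the third gene for the same c subunit as Atp5g1 and Atp5g2, had no such copy and 777 to 1113 counts, and rose by 0.62 (SE 0.13). Apart from such copies, some subunits shared part of their transcript with a gene annotated at the same place. Examples were Cox5a (42.0%), Ndufb6 (39.0%), Ndufb9 (28.7%) and Cox4i1 (20.1%). How reads in these shared parts were counted is not given in the sources used here.

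Many respiratory chain genes are known targets of the transcription factors NRF1, the ETS family member GABP, YY1 and the estrogen-related receptors (ERR). A promoter window of 250 bases before to 50 after the start was found in RefSeq (GRCm38.p6) for 67 of the 86 genes. The letters GCGCANGCG (NRF1) stood on either strand in 20 of them (29.9%) against 7.03% of windows of 27025 genes, and CCGGAAG (ETS) in 16 (23.9%) against 9.93%. AAGATGGC (YY1) stood in 9 (13.4%) against 3.19%, and TCAAGGTCA (ERR) in 2 (2.99%) against 0.466%. The NRF1 letters stood in 13 of 43 windows of subunits called higher, in 1 of 4 called lower and in 4 of 16 not called. They are shown in capitals for Atp5k, called higher, together with the ETS letters (chr5:108434350-108434649, minus strand), and for Uqcrc1, called lower (chr9:108936398-108936697, plus strand), to show that the letters occur in a window from each side. A match is a description of the letters and not a binding site.
Atp5k: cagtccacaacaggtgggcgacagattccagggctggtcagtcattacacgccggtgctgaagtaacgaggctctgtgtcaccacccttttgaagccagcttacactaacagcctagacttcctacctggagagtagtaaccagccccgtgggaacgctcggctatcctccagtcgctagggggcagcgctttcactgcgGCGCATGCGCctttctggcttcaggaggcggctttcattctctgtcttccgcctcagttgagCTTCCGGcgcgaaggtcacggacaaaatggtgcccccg
Uqcrc1: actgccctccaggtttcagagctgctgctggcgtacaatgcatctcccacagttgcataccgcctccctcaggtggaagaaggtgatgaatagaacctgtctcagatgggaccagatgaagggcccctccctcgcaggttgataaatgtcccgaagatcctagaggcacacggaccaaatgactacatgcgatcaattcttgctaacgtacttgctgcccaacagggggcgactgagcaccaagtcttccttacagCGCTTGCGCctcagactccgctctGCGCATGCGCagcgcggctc

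Related genes were counted beside the subunits. Of 39 assembly factors tested, which build the complexes without staying in them, 10 were higher and 6 lower, with a median log2 fold change of 0.0024. The higher ones included Cox17, a short copper chaperone of complex IV, by 0.83 (SE 0.15) at 425 to 515 counts over the 7 samples. Among them was also Uqcc2 of complex III, by 0.74 (SE 0.12) at 427 to 599 counts. The lower ones included Sdhaf2, which adds the flavin to complex II, by -0.47 (SE 0.11), and Bcs1l, which inserts the Rieske protein, by -0.50 (SE 0.17), a call lost in 7 of 21 alternatives.

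Cycs, the cytochrome c that carries electrons to complex IV, was higher by 0.47 (SE 0.17, adjusted p = 0.038), and so was the ADP/ATP carrier Slc25a4 by 0.40 (SE 0.12), the 2 genes called among 7 carriers and channels tested. The Cycs call was lost in 10 of 21 alternatives and the Slc25a4 call in 5. Among 11 uncoupling and antioxidant genes tested, 1 was higher and 4 were lower, among them Ucp2 by -0.73 (SE 0.19), a call lost without NR replicate 2 (-0.54, adjusted p = 0.064). Among 22 regulators of respiratory genes, 4 were higher and 4 lower. The called shares of the carriers (28.6%) and regulators (36.4%) were near the 30.0% over all genes. The shares were 41.0% for the assembly factors and 45.5% for the 11 uncoupling and antioxidant genes.

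The cytosolic ribosome, the mitochondrial ribosome and the proteasome were followed for comparison. Of 61 cytosolic ribosome genes tested, 36 were higher and 1 lower (median log2 fold change 0.66), and 16 of the 23 with at least 100 counts in every sample had a count range under 1.5 times. Of 76 mitochondrial ribosome genes, 11 were higher and 17 lower (median -0.15), and 1 of 52 had such a level count. Of 38 proteasome genes, 5 were higher and 8 lower (median -0.05), and 0 of 30 had one. The called share was 60.7% for the cytosolic ribosome and, at 36.8% and 34.2%, near the background of 30.0% for the mitochondrial ribosome and the proteasome. The part of mitochondrial content in these values was not tested.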

How the data were processed

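Patch-seq counts of 7 samples were analysed. The authors made cDNA with SMART-seq V4 and libraries with Nextera XT, aligned reads to mm10 with STAR 2.6.0, removed PCR duplicates with RmDup, and deposited raw counts per gene from HTSeq 0.9.1 (versions from the submitters' processing notes). Annotation and strand setting are not given in the sources used here. Groups were taken from the labels. The deposited counts of 24062 genes were tested with edgeR 4.0.16 (R 4.3.3, TMM, robust quasi-likelihood fit, no covariates) after a filter of at least 10 counts in at least 3 samples, with Benjamini-Hochberg adjustment over all genes and a threshold of 0.05. CPM used the TMM-scaled totals. Lengths were taken from GENCODE M21 for 23677 symbols, copies were found with blastn 2.17.0, and promoter windows from RefSeq. The members, gene lists and rules were chosen with earlier results of these data known. Genes named are the catalytic core, tissue isoforms, the 2 largest rises and falls of complexes I, III, IV and V, and members under the filter. Assembly factors, carriers and the promoter and copy examples were picked for their role or after their values were seen, as were the limits of 1.5 times and 100 counts for a level count and the genes Ndufa8, Ndufa9, Ndufa12, Ndufb4, Ndufv3, Atp5d, Atp5e and Atp5s. Alternatives were DESeq2 1.42.0, limma-voom 3.58.1, other normalizations and filters, thinning to 1914497 counts, GC content, length and expression offsets, covariates, a replicate block and leaving out each sample. On simulated data the edgeR step was tested for direction and calls. SEs cover the spread between pools, in which the neurons and the amplification of each library cannot be told apart. The values of 1 subunit are not reported here, although it is included in the counts.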

Additional observations from a re-analysis of the deposited data

How the results depend on the processing

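Across DESeq2, limma-voom, other normalizations, filters, thinning and offsets, 44 to 58 subunits were called (57 in the fit reported) and the median log2 fold change stayed positive. Exceptions were the covariates. With genes detected as a covariate, 1 gene in all and 0 subunits passed, 0 higher and 0 lower, in each of the 5 complexes. With total counts as a covariate, 0 genes and 0 subunits passed in every complex, and the median was 0.0070. The covariates are tied to the groups, so that part of the difference between groups is fitted by them. The median was 0.31 with the transcript length offset and 0.29 with the counts per kilobase offset, under which 12 subunits were lower and 2 were called in complex II. Upper quartile normalization also called 2 in complex II. The summed CPM of complex II, 31.7 higher in TR, was -12.7 with library size only and -24.5 after thinning. The cause of these changes was not tested. After thinning, 76 subunits passed the filter, against 80 in the fit reported. The part of depth in the values of subunits with fewer than 100 counts was not tested.

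Deviations from the group means of same-numbered TR and NR samples had correlations of -0.13, -0.06 and 0.03, and those of differently numbered samples -0.17 to 0.22. The labels do not say whether the numbers pair the samples, and these few values cannot exclude it. With the replicate block, fitted without TR replicate 4, 58 subunits and 4120 genes were called, 2 of them in complex II. With the block and the GC content offset together, 56 subunits and 2605 genes were called.

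Leaving out 1 sample at a time gave 2620 to 4583 genes, 48 to 58 subunits (45 to 53 higher, 3 to 8 lower), and by complex 24 to 29 (I), 1 to 2 (II), 6 to 7 (III), 9 to 10 (IV) and 8 to 11 (V). The median ran from 0.49 to 0.73, and the summed CPM difference from 1735 to 2502 in complex I, -9.9 to 67.1 in II, 233 to 376 in III, 845 to 1160 in IV and 658 to 984 in V. The lowest count of genes came without NR replicate 3, 3 subunits were lower without NR replicate 3 or TR replicate 2, complex II had 2 calls without NR replicate 1, and its sum turned without TR replicate 1.

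Of 59 genes followed by name, 38 were called, and 19 of these kept their call in each of the 21 alternatives other than the covariates. Calls were lost in 14 of these for Ndufs3 (adjusted p 0.012 to 0.16), 10 for Ndufa9 and Cycs, 9 for Ndufb4, 8 for Ndufa12, 7 for Atp5a1 (0.0048 to 0.66) and Bcs1l, 5 for Slc25a4, 3 for Atp5c1 and Atp5sl, 2 for Cox5a, Cox7a2l and Ndufv3, and 1 for Uqcrc1, Atp5g3, Uqcr11, Atp5k, Atp5e and Ucp2. Without NR replicate 2 or 3 Ndufv3 had an adjusted p of 0.075. Many sign changes were of values that had not been called. With the GC content offset these were Ndufs1 (-0.10), Ndufs7 (0.10) and Atp5d (0.11), and with block and GC offset Ndufs1 (-0.093), Ndufs7 (0.17), Cyc1 (0.062), Cox6a2 (0.12) and Atp5d (0.17). With every gene of at least 1 count they were Ndufs1 (-0.019), Sdhb (-0.070) and Atp5b (-0.037), and with library size only Sdhb (-0.032) and Atp5b (-0.00028). Cox6a2 also turned with at least 10 counts in every sample (0.013), limma-voom (0.0080), the replicate block (0.072), thinning (0.17) and upper quartile normalization (0.055). Cox7a1 turned with thinning (-0.069) and the transcript length offset (-0.34), as did Cyc1 with the latter (0.014). With the expression level offset Ndufs1 (-0.065), Sdha (-0.031), Sdhb (-0.14), Sdhd (-0.015), Atp5b (-0.20), Cox7a1 (-0.16) and Atp5g1 (-0.00033) turned. With the counts per kilobase offset Ndufs8 (-0.13), Sdhb (-0.29), Sdhd (-0.10), Uqcrfs1 (-0.057), Atp5b (-0.27), Cox6a2 (0.11), Ndufa8 (-0.15) and Atp5g1 (-0.18) did. With genes detected as a covariate Sdhb (-0.027), Uqcrc2 (0.014), Cyc1 (0.093) and Atp5g1 (-0.057) turned. With total counts as a covariate Ndufs1 (-0.050), Sdha (-0.061), Sdhb (-0.10), Sdhd (-0.055), Uqcrfs1 (-0.15), Atp5b (-0.19), Cox6a2 (0.031), Ndufa8 (-0.15) and Atp5g1 (-0.50) turned, as did Cox5a (-0.059), Cox5b (-0.015), Atp5a1 (-0.086), Atp5c1 (-0.098), Cox6a1 (-0.00015), Cox6b1 (-0.041), Atp5g3 (-0.041), Ndufa12 (-0.012), Cycs (-0.0074), Slc25a4 (-0.14), Ucp2 (0.25) and Atp5sl (0.099), which had been called. Leaving out single samples turned Ndufs1 (-0.021 to 0.11), Sdhb (-0.027 to 0.11), Atp5b (-0.0051 to 0.10), Cox6a2 (-0.15 to 0.16) and Cox6b2 (-0.27 to 0.059).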
